A study of Mus musculus with 31 samples.

Results

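The replication-dependent histone genes were examined for accessible chromatin in the parental NIH-3T3 line of fibroblasts, which derive from mouse embryos. The genes were taken by name, as every protein-coding gene of the mm10 annotation whose symbol starts with Hist1h, Hist2h, Hist3h or Hist4h, which gave 67 of 21938 protein-coding genes. They comprised 6 H1, 18 H2A, 18 H2B, 12 H3 and 13 H4 genes. Among them were the testis variants Hist1h1t, Hist1h2aa and Hist1h2ba. In ATAC-seq, Tn5 transposase inserts adapters where nucleosomes leave DNA exposed, and here it was applied to 50000 cells in 1 library. The parental cells carried no transgene for a transcription factor (TF), and the labels list no doxycycline for them, whereas the methods give doxycycline for NIH-3T3 cells in general. The other 30 samples, in which single TFs or only the transactivator rtTA3G were expressed, were not analysed here.

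Replication-dependent histone genes supply the histones that package newly copied DNA, and are transcribed mainly in S phase. They lack introns as a rule, lie in clusters, and their mRNAs end in a conserved hairpin instead of a poly(A) tail, which the stem-loop binding protein Slbp recognises. H2A and H2B genes often face each other across a short shared promoter, and each family has its own promoter elements.

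The hairpin was the feature shared by nearly all members that the choice of genes did not use. A 16-base hairpin with a stem of 6 base pairs and a loop of 4 bases was found within 200 bases after the stop codon in 64 of the 67 genes, a median of 31.5 bases past it (range 22 to 59). It was not found by this search in Hist1h3g, Hist1h4a and Hist2h2be. The 3 most common forms are shown because they separate the H4 genes from the rest. Capitals mark the stem, and the letters are those of the DNA, 5′ to 3′.
41 genes, none of them H4: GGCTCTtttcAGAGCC
9 genes, none of them H4: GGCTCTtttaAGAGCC
8 genes, all of them H4: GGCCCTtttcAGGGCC

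A peak lay within 1 kb of an annotated start in 56 of the 67 genes, or 83.6% (exact 95% binomial interval 72.5 to 91.5%). Over all protein-coding genes the share was 53.7%. The interval covers counting over genes only, since there was 1 library and no replicate. The start itself was covered by a peak in 52 members, against 48.7% of all protein-coding genes. By family, a peak was present at 4 of 6 H1 genes, 15 of 18 H2A, 14 of 18 H2B, 11 of 12 H3 and 12 of 13 H4 genes. The intervals of the 5 families overlapped, so that these shares could not be told apart. None of the 3 testis variants had a peak.

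The height of a peak is given here as its pileup, the number of fragments over the summit. In members with a peak the median pileup was 70.5 (quartiles 58 and 78) when the highest peak within 1 kb was taken, against 64 (42 and 90) over all protein-coding genes with a peak. The pileup that the peak caller expected from the surroundings was also higher at the histone genes, with a median of 6.85 against 5.54. The fold enrichment over that expectation was accordingly lower, with a median of 8.84 against 9.83. Histone peaks spanned a median of 951 bp, against 800 bp over all genes. Histone peaks thus stood near the middle of the range of promoter peaks in height, with a narrower spread over genes. The highest peaks of the 56 members were 39 different peaks, so shared peaks were counted more than once. The spread with each peak counted once was not computed. The lowest pileup of any peak in the list was 10, but the height needed for a call rises with the expected pileup. A gene without a peak may thus have carried fewer fragments than that, or more where the expected pileup was high. In a bulk sample, accessibility in fewer cells and weaker accessibility in every cell cannot be told apart.

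**Figure D1:**
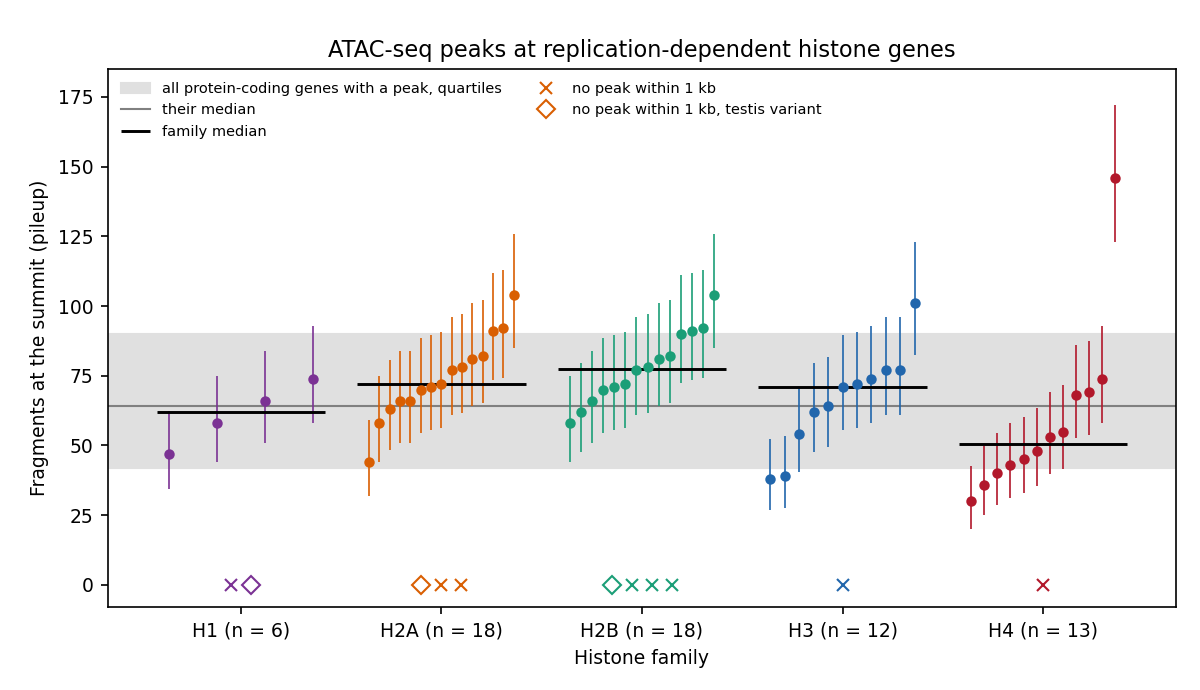
Pileup of the highest peak within 1 kb of each histone gene, by family, with exact 95% Poisson intervals (counting error only), and genes without a peak drawn at 0. The grey band holds the quartiles of all protein-coding genes with a peak (42 and 90), and the H4 genes had the lowest family median (50.5) together with the highest single value, 146 at Hist4h4.

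H2A and H2B form the dimers that are added last to a nucleosome, and their genes made up 12 of the 13 pairs of members that faced each other within 1 kb. The starts of the 13 pairs were 175 to 659 bases apart, with a median of 267. In 9 pairs a single peak covered both starts, or 69.2% (exact 95% interval 38.6 to 90.9%), against 84.3% of all 733 facing pairs of protein-coding genes. The pileups of these 9 peaks ran from 66 to 104, with a median of 81, and in 7 of them the summit lay between the starts. The highest was the peak between Hist1h2ah and Hist1h2bk, with a pileup of 104 (95% Poisson interval 85.0 to 126) and a 15.0-fold enrichment, the highest fold of all members. Its summit lay 151 bases from either start.

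The pairs Hist1h2ak and Hist1h2bn (pileup 92) and Hist1h2an and Hist1h2bp (91) followed, and the lowest was the pair Hist2h2ac and Hist2h2be (66). The Poisson intervals of neighbours in this order overlapped, while those of the highest and the lowest pair did not (85.0 to 126 and 51.0 to 84.0). Those pairs were picked as the extremes, which favours intervals that do not overlap. The 4 pairs without a shared peak were of 3 kinds. Hist1h2bq with Hist1h2ao and Hist1h2ap with Hist1h2br had no peak at all, and none of the 75-base sequences around their starts occurred only once in the genome. The testis pair Hist1h2ba and Hist1h2aa had no peak although all such sequences there were unique. Hist1h2bh and Hist1h3f, the only facing pair of an H2B and an H3 gene, had 2 separate peaks with pileups of 71 and 67.

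The stretches between the starts are shown for the pair with the highest peak, for the testis pair and for a pair in duplicated sequence, because the first 2 both hold CCAAT and the octamer and differ in accessibility. They are read on the plus strand of mm10 between the RefSeq starts. Capitals mark the CCAAT box, the octamer ATTTGCAT, the TATA box as TATAAA and the letters AAACACA, on either strand.
Hist1h2ah and Hist1h2bk (chr13:22035644-22035820, plus strand): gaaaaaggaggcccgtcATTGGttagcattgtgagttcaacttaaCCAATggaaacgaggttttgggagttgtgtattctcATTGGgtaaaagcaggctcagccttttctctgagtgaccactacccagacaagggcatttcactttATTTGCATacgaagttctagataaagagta
Hist1h2ba and Hist1h2aa, testis pair (chr13:23934157-23934436, plus strand): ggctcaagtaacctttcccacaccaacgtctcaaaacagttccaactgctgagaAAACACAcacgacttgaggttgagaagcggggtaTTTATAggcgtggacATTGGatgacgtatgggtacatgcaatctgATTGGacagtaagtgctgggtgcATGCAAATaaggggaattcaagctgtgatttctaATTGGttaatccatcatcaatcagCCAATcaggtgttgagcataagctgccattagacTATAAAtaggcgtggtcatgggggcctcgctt
Hist1h2bq and Hist1h2ao, duplicated (chr13:21810200-21810366, plus strand): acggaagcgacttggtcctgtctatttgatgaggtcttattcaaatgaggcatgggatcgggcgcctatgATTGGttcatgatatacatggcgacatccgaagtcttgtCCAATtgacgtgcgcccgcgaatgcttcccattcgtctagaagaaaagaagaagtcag
The open stretch held 3 CCAAT and 1 octamer. The testis stretch held 4 CCAAT, 1 octamer, 2 TATAAA and 1 AAACACA without a peak. The duplicated stretch held 2 CCAAT and no octamer, and the wider windows of Hist1h2bq and Hist1h2ao each held 3 CCAAT.

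Outside the 13 pairs stood 11 H2A and H2B genes, of which 10 had a peak. Their median pileup was 64.5 (range 44 to 90), against 81 for the 18 genes that shared 9 peaks, and the median fold enrichment was 9.33 against 9.49. The value of Hist2h2ab (66) was that of the peak over the neighbouring pair Hist2h2ac and Hist2h2be, 497 bp from its start, and with the nearest peak of each gene the median was 62.5. Hist1h2bm carried the highest single peak (pileup 90, 10.8-fold) and Hist1h2ab the lowest (44, 5.73-fold). Their Poisson intervals of 72.4 to 111 and 32.0 to 59.1 did not overlap, but these genes too were picked as the extremes. Among the H2B genes the lowest values were those of Hist1h2be (58) and Hist2h2bb (62), and among the H2A genes Hist2h2aa2 (58) came next after Hist1h2ab, although the peak over the start of Hist2h2ab itself was lower (47). Hist3h2ba had no peak, with the nearest at 5584 bp, although 93.0% of the 75-base sequences around its start were unique. Its neighbour Hist3h2a had a peak with a pileup of 63, which also covered the start of Trim17, a gene of the tripartite motif family.

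H3 and H4 form the tetramer at the core of the nucleosome. The 11 H3 genes with a peak had a median pileup of 71 and a median fold enrichment of 8.84, or 64 and 6.93 with the nearest peak of each gene in place of the highest. Hist1h3g was the highest (pileup 101, interval 82.3 to 123), but over a high expected pileup of 12.4, which gave a fold of 7.62. Hist1h3b and Hist1h3h followed with a pileup of 77 each. The value of Hist1h3h was that of the peak over the neighbouring pair Hist1h2bl and Hist1h2ai, and the peak over its own start had a pileup of 67. The lowest were Hist1h3i (38, 3.29-fold) and Hist2h3c2 (39, 6.79-fold), whose intervals ended at 52.2 and 53.3. The H3 peaks were narrower than those of the other core histones, with a median width of 694 bp against 843 bp for H4, 952 bp for H2A and 1040 bp for H2B. By fold enrichment Hist1h3e (12.0) and Hist1h3b (11.9) were the highest of the family. The promoter of Hist1h3g is shown as that with the highest pileup of the family, as the 150 bases before its RefSeq start (chr13:23535268-23535417, plus strand), with CCAAT in capitals.
Hist1h3g: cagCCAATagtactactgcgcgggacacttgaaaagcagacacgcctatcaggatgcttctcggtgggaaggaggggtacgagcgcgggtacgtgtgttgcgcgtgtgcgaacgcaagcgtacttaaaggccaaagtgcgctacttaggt

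The H4 genes had lower peaks than the other core histones. Their median pileup was 50.5 and their median fold enrichment 7.07, against 77.5 and 9.42 for H2B. With members under 50% unique sequence left out, the H4 median was 53 in 11 genes, against 71.5 for H3, 77 for H2A and 77.5 for H2B. The gap was smaller with the nearest peak of each gene, over all members with a peak. The medians were then 50.5 for H4, 64 for H3 and 62.5 for H2A and H2B genes outside facing pairs. No test was made, as genes that share peaks are not independent and there was 1 library. The lowest were Hist1h4n (30) and Hist1h4k (36). Hist1h4j was counted with a peak 492 bp from its start (40), and the peak over its start had a pileup of 29 and a 5.32-fold enrichment. Hist4h4, the only member on chromosome 6, had the highest pileup of all members, 146 (interval 123 to 172), over the highest expected pileup, 15.9. Its fold enrichment of 8.72 was close to the median of all members. Hist1h4a (74) and Hist1h4h (69) came next.

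The core of the H4 element, GGTCCG, a letter string within the site known to be bound by the H4 activator Hinfp, stood in 12 of 13 H4 promoters or 92.3%. Over all protein-coding promoters the share was 9.60%. The exception was Hist1h4a, which held 2 copies of TGACGTCA, a cyclic AMP response element, and 4 matches to the E2F letters TTTCCCGC or TTTGGCGC. The 150 bases before the RefSeq start are shown for Hist4h4 (chr6:136804432-136804581, minus strand) and Hist1h4f (chr13:23551669-23551818, minus strand), with GGTCCG in capitals.
Hist4h4: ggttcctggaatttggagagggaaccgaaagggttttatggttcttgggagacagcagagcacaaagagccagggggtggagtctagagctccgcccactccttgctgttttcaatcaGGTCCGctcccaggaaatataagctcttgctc
Hist1h4f: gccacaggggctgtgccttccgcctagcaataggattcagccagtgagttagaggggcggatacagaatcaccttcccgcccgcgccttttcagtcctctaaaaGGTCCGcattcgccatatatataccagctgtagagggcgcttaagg

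H1 histones bind the linker DNA between nucleosomes. Of the 6 H1 genes, Hist1h1b, Hist1h1c and Hist1h1e had a peak over the start, with pileups of 47, 66 and 58. Hist1h1a (74) was counted only because a peak ended 842 bp before its start. That peak, 2024 bp wide, covered the starts of Hist1h4a and Hist1h3a, and no peak touched the coding part of Hist1h1a. Hist1h1d had no peak within 1 kb of its GENCODE start. Its RefSeq start lies 1770 bp further in, and there a peak of 1609 bp (chr13:23554964-23556572) had a pileup of 69 and a fold enrichment of 7.29. With RefSeq starts 5 of 6 H1 genes and 57 of 67 members had a peak. Hist1h1t, the linker histone of spermatocytes, had none, and its nearest peak was 1754 bp away.

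The H1 peaks over the start reached far into the gene. At Hist1h1b, Hist1h1c and Hist1h1e they covered the whole coding part, and the summits stood 341, 258 and 600 bases past the stop codon. At Hist1h1d the summit stood 91 bases after the start codon. In the first 3 genes the peak widths were 1555, 1469 and 1894 bp, against a median of 951 bp for all members. At Hist1h1e the summit lay 114 bases before the GENCODE start of Hist1h2be, an upstream exon that lies 35168 bp from the start codon of that gene, so the same peak was counted for both genes. A second peak over the coding exon of Hist1h2be had a pileup of 63 and an 8.59-fold enrichment, with its summit 61 bases before the start codon.

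The promoters of Hist1h1c (chr13:23738657-23738806, plus strand) and Hist1h1e (chr13:23622559-23622708, minus strand), which had peaks, and of Hist1h1t (chr13:23695661-23695810, plus strand), which had none, are shown as the 150 bases before the RefSeq start. Capitals mark AAACACA, known as the AC box of H1 promoters, with CCAAT and TATAAA.
Hist1h1c: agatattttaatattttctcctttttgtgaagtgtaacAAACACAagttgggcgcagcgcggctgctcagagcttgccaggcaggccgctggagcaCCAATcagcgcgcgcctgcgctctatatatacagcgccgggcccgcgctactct
Hist1h1e: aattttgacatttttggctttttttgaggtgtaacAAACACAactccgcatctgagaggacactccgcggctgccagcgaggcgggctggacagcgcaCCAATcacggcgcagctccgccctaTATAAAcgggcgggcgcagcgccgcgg
Hist1h1t: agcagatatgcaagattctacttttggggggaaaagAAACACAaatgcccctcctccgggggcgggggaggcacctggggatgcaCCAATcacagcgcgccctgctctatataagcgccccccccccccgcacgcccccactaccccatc
All 3 carried AAACACA followed by CCAAT. In the window from 250 bases before to 50 after the GENCODE start AAACACA was found in 4 of 6 H1 promoters, Hist1h1t among them, against 6.40% of all protein-coding promoters. Hist1h1d held none in that window, but 1 in the same window around its RefSeq start.

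Summit positions were compared by family, as a description with no test. In all 14 H2B genes with a peak the nearest summit lay upstream of the start, by a median of 145 bases. In 12 of 15 H2A genes it was upstream as well, and the median over all 15 was 50 bases upstream. Summits of H4 genes sat at or just inside the gene, a median of 40 bases after the start, and 7 of 12 fell within the coding part. The remaining 5 lay before the start codon. H3 summits were centred on the start with a median of -6 bases, but those of Hist2h3b and Hist1h3a lay past the stop codon within wide peaks shared with neighbours. Across members 80.4% of the summits were within 200 bases of the start, against 64.9% for all protein-coding genes with a peak. Distances were taken from the gene start, although a peak could lie near the start of any transcript. Genes with a peak only at another start therefore lower the 64.9%, and the shares are not fully alike. With gene starts only, 56 of 67 members still had a peak. The coding parts hold few unique sequences (a median of 31.9% of 75-base sequences), with family medians of 91.2% in H1, 21.4% in H2A, 30.5% in H2B, 22.5% in H3 and 35.7% in H4. Its part in the summit positions was not tested.

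**Figure D2:**
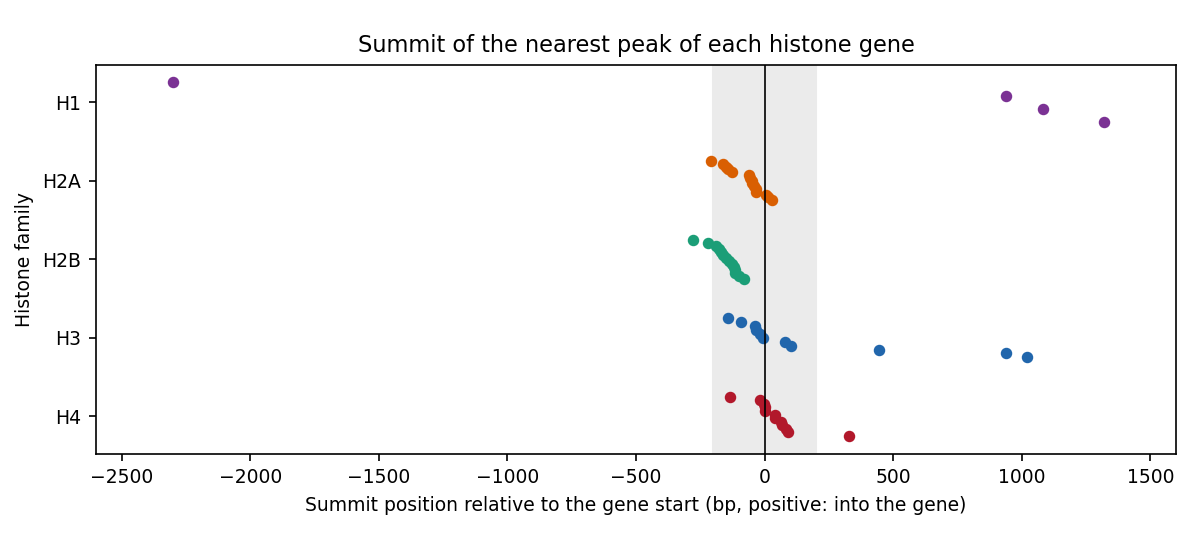
Position of the summit of the nearest peak relative to the gene start, in bp along the gene, for each histone gene with a peak within 1 kb, with the 200 bases to either side shaded. H2B summits all lay upstream, H4 summits clustered at the start, and the H1 summits lay 937 to 1320 bp inside or, for Hist1h1a, at -2301 bp.

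All 3 testis variants were in sequence where reads can be placed. Hist1h2aa and Hist1h2ba encode the H2A and H2B forms made in male germ cells, and face each other 305 bases apart at the end of the chromosome 13 cluster. Their nearest peak was 40604 bp from Hist1h2ba. In the 168 kb between this pair and the rest of the cluster there was 1 peak, at no protein-coding start. Hist1h1t lies inside the cluster, between the pair Hist1h2ac and Hist1h2bc (pileup 82) and Hist1h4c (43). All 75-base sequences within 250 bases of the 3 starts were unique. Outside the member list, 7 germ cell histone genes were examined, and 1 of them had a peak. The genes without one were H1fnt, H2afb1, H2afb2, H2afb3, H2bfm and Hils1, and the 1 peak, near the oocyte linker histone gene H1foo (pileup 54), did not cover its start. The uniqueness of the sequence at these 7 genes was not computed, so a missing peak there cannot be read as closed chromatin.

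Of the other 8 members without a peak, 6 lay in duplicated sequence. The authors kept only reads that map to 1 place, and 10 members had under 50% unique 75-base sequences around their start. Of these 4 had a peak, against 52 of the 57 others (91.2%, exact 95% interval 80.7 to 97.1%). At Hist1h2ao, Hist1h2ap, Hist1h2bq and Hist1h2br the unique share was 0. From 500 bases before to 100 after the start codon Hist1h2bq and Hist1h2br were identical at all 600 bases, as were Hist1h2ao and Hist1h2ap. A read pair with both ends inside such a window has more than 1 place in the genome, so a missing peak there cannot be read as closed chromatin. Hist1h4m and Hist1h4n matched at 599 of 600 bases and had 17.6% and 16.4% unique sequences. Hist1h4n had 2 peaks with pileups of 30 and 23, while the nearest peak to Hist1h4m was at 19739 bp. Hist2h3c1 and Hist2h3c2, both at 17.6%, also differed, as Hist2h3c2 had a peak of 165 bp and Hist2h3c1 had none. The peaks at Hist2h2aa1 (pileup 71, 27.2% unique) and Hist2h2aa2 (58, 17.6%) were 422 and 341 bp wide.

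**Figure D3:**
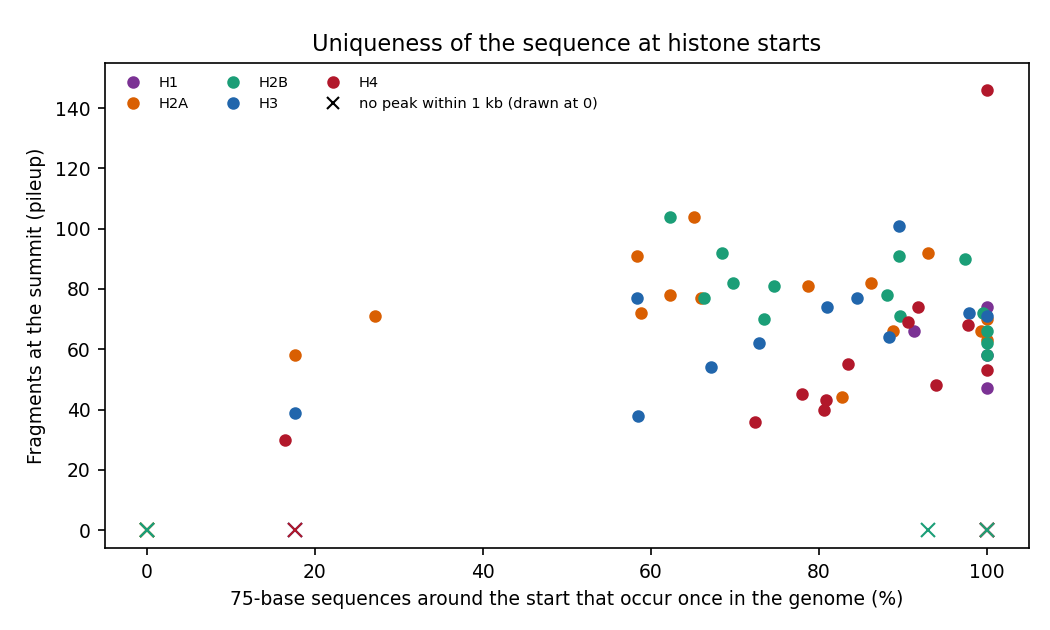
Share of 75-base sequences within 250 bases of each start that occur once in the genome (percent) against the pileup of the highest peak within 1 kb (fragments), coloured by family, with members without a peak drawn at 0. The crosses at 0% are 4 genes drawn over each other, those at 17.6% are 2, and those at 100% are 4, the testis variants and Hist1h1d.

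The 11 members without a peak are thereby all described. They are the 3 testis variants, 6 genes with under 50% unique sequence (Hist1h2ao, Hist1h2ap, Hist1h2bq, Hist1h2br, Hist1h4m and Hist2h3c1), Hist1h1d with its different RefSeq start, and Hist3h2ba.

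The promoter letters of the families were counted from 250 bases before to 50 after the GENCODE start on both strands. CCAAT, the letters bound by NF-Y, stood in 56 of 67 promoters or 83.6% (exact 95% interval 72.5 to 91.5%), against 39.0% of all protein-coding promoters. It was present in all 18 H2A and all 18 H2B promoters, always in at least 2 copies. In H4 the share was 30.8%. TATAAA stood in 55.2% (42.6 to 67.4%) against 12.6%. With its first base 40 to 20 bases before the start, on the strand of the gene, it was found in 6 members, 3 of them H1 genes. Counted from RefSeq starts it was found in 13 members, 4 of them H1, 4 H2A, 3 H3, 1 H2B and 1 H4. The octamer ATTTGCAT, a site of the factor encoded by Pou2f1, stood in 8 of 18 H2B promoters (44.4%, 21.5 to 69.2%) and in 7 of 18 H2A promoters, against 1.57% of all promoters. In H1, H3 and H4 it was not found. At Hist1h2be 1 octamer stood before the start codon of the coding exon, outside the window counted. Facing genes share their window in part, so the same letters were often counted for both genes of a pair.

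In the same window, histone genes with a peak were poorer in G and C than other protein-coding genes with a peak. The medians were 45.0% and 59.7%. The window was that of the gene start, although the peak of a gene could lie near the start of another transcript. For such genes the window need not be the accessible promoter. The ratio of observed to expected CpG was nearly the same, at 0.750 against 0.744. The GC box GGGCGG stood in 46.4% of the members with a peak, against 59.9% of the other protein-coding genes with a peak. A match of letters is a description and no evidence of binding.

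**Figure D4:**
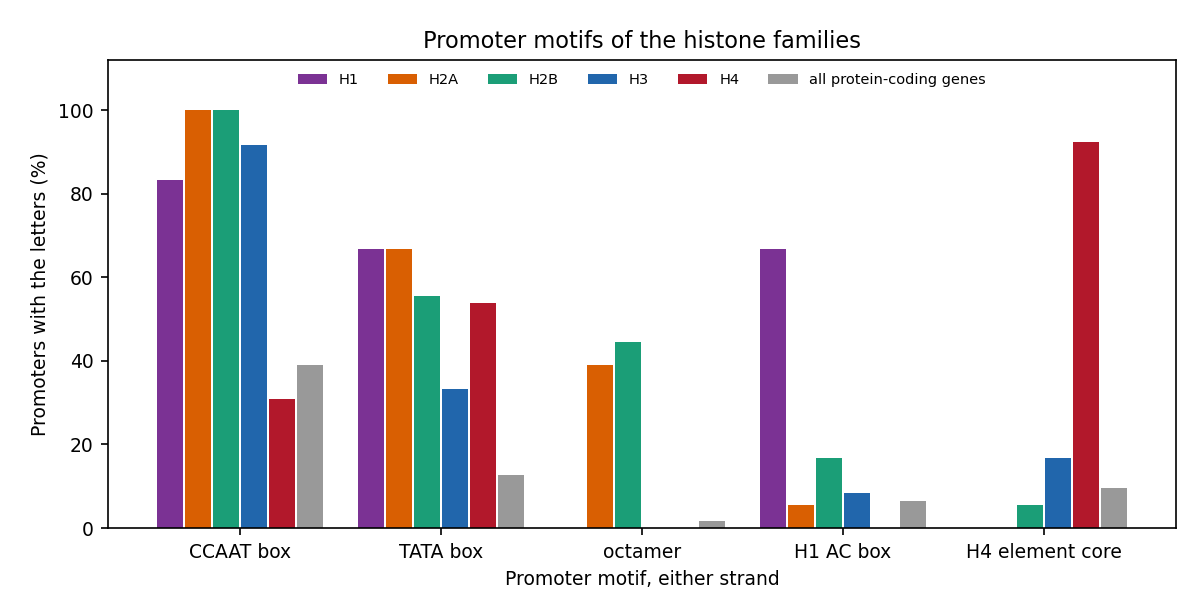
Percent of promoters that hold each motif on either strand, by family and over all 21938 protein-coding genes. The octamer appears in H2A and H2B, the AC box mainly in H1 (66.7%) and the core of the H4 element in H4 (92.3%).

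Along the chromosomes, 54 members lay on chromosome 13, 10 on chromosome 3, 2 on chromosome 11 and 1 on chromosome 6. The members were near 53 different peaks, of which 18 were near 2 or more members and 12 covered 2 or more starts. On chromosome 13, 4 blocks of members were separated by at least 100 kb. The longest block, from Hist1h4h to Hist1h1a, spanned 235 kb with 29 members, 27 of them with a peak. It held 31 peaks, 23 of them within 1 kb of a member. The first block, from Hist1h2bl to Hist1h2br, spanned 120 kb, and 13 of its 18 members had a peak. In the short block from Hist1h2ah to Hist1h2bj (9.65 kb) all 5 members had one. The Hist2 block on chromosome 3 spanned 51.9 kb, with a peak at 9 of 10 members.

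Peaks per 100 kb were 13.4, 31.1 and 13.2 in the 3 chromosome 13 blocks with peaks, and 19.3 in the Hist2 block. The blocks were drawn from 1 kb before the first to 1 kb after the last member start, and the 31.1 stands for 3 peaks. In the 1490 kb between the second and the third chromosome 13 block the density was 2.76. The density over the whole genome was not computed, so these values do not show whether that stretch was poor in peaks. The stretch between the first and the second block held 19 peaks (9.51 per 100 kb), 18 of them at no protein-coding start. The 1490 kb stretch held 40 protein-coding genes, of which 36 were vomeronasal receptor genes (Vmn1r), none of them with a peak. Other protein-coding genes within the blocks were Bola1, Trim17 and Hfe. The peaks over Hist2h2ab and over the pair Hist2h2ac and Hist2h2be (pileups 47 and 66) also lay within 1 kb of a start of Bola1, a mitochondrial protein gene. Hfe, which controls iron uptake, had no peak.

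**Figure D5:**
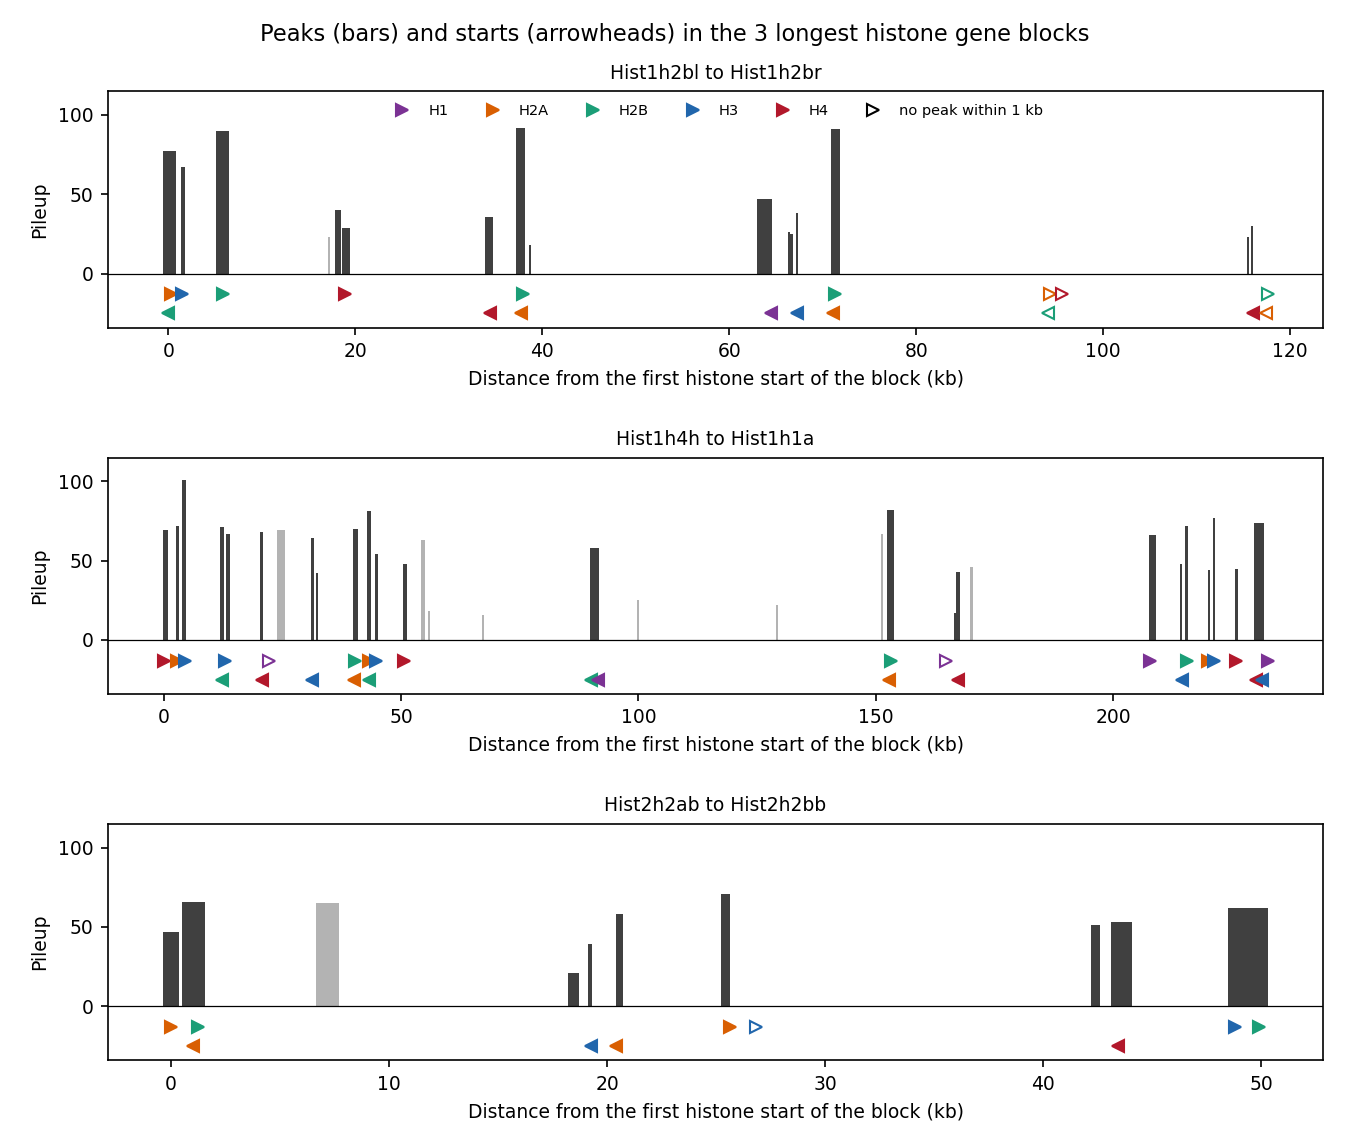
Peaks (bars, height in fragments at the summit) and gene starts (arrowheads in the direction of transcription, coloured by family) in the 3 longest blocks, along the distance in kb from the first member of each. Dark bars lie within 1 kb of a member and pale bars elsewhere, and the open arrowheads without a bar at the right of the top panel are the duplicated genes.

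Genes of related function are set beside the 53.7% of all protein-coding genes with a peak and their median pileup of 64. Replacement histone genes, which are expressed outside S phase, had a peak at 10 of 11, the exception being H1fx. H2afj (147) and H2afv (141) had the highest pileups, and the median was 74. Their fold enrichments were 8.27 and 15.0, against a median of 9.29 in that list, so H2afj was not high by fold. All 15 genes of histone transcription and mRNA processing had a peak, with a median of 82. Casp8ap2, which is needed for histone transcription, was the highest at 101, and Cpsf2, a subunit of the cleavage complex, reached 88. All 11 histone chaperone genes had a peak, with a median of 98, Asf1b (166) and Nap1l1 (160) being the highest. As for the cell type, 9 of 10 fibroblast markers had a peak within 1 kb, the exception being Postn. Fn1 (117) and Vim (114) were the highest and Thy1 (12) the lowest. Of the epithelial and of the blood markers 1 of 5 each had one, Krt8 (22) and Spi1 (18). Of 4 endothelial markers 3 had a peak within 1 kb, with pileups of 114 at Cdh5, 62 at Pecam1 and 13 at Tek. The start itself was covered in 8 of 10 fibroblast, 0 of 5 epithelial, 0 of 5 blood and 1 of 4 endothelial markers. A peak at a promoter marks accessibility and not expression.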

How the data were processed

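The authors placed paired-end ATAC-seq reads of 75 nucleotides on mm10 with STAR, and kept reads with a single location. Picard took out duplicates, and MACS2 called the peaks. The submitters' processing notes give STAR 2.5.3a and MACS2 2.1.1.20160309. No replicate of the parental library was made. The authors deposited 63456 peaks of this library, each with a score, a fold enrichment (ratio of pileup to expected pileup, each with 1 added), a −log10 p-value and a −log10 q-value. The number of reads is not part of the list. The fold enrichment and −log10 p of each peak were solved for its pileup and the expected pileup, and 99.997% of the pileups came within 0.02 of a whole number. The solving step was tested on simulated data.

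Peaks were assigned to genes within 1 kb of the start of any transcript in GENCODE M21, whose build is that of the files. All 67 members were matched to RefSeq (GRCm38.p6), which gave the other starts and the promoter sequences. Coordinates are counted from 1. Sequence uniqueness was the share of 75-base sequences within 250 bases of a start that occur once in the genome, with exact matches on both strands. A facing pair is 2 neighbouring genes transcribed away from each other with starts within 1 kb. Intervals are exact binomial or Poisson intervals at 95% and cover counting error only, and PCR copies that remained are not independent molecules. With 1 library no test was made.

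Named were all members without a peak, the testis variants, the 3 highest and 2 lowest members of each family, and in each comparison list the 2 highest genes and those without a peak. Genes in the pairs, far starts, duplicates and sequences were named after their values were seen. The members and lists were chosen with earlier results of these data known. Peaks were also filtered at a q of 0.01 or 1e-05 and at a fold of at least 5, and other settings were distances of 0, 500 bp and 2 kb, other starts, other promoter windows, and the nearest peak. The software was Python 3.11.15 with SciPy 1.17.1, pandas 2.3.3 and NumPy 2.4.6, and figures were drawn with matplotlib 3.10.9.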

Additional observations from a re-analysis of the deposited data

How the results depend on the processing

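Of 88 alternative values, 81 stayed within the counting interval of the reported value, or within 1.5 times for counts of peaks and TATAAA. For a median pileup that interval was the Poisson interval of a single count of that size. It does not measure the spread of a median over genes, and is easily kept. Many of the alternative values could hardly move. The highest peaks of the members had a −log10 q of at least 8.12, so the q filters changed no share and no median. The interval of the H1 share was wide, at 22.3 to 95.7%. At a distance of 2 kb all H1 genes (100.0%, 6 of 6) and all H3 genes (100.0%, 12 of 12) had a peak, against 56.5% of all protein-coding genes. The testis variant Hist1h1t was reached there only by a peak counted for Hist1h4c, 1754 bp away. Hist2h3c1 was reached only by the peak counted for Hist2h2aa1, 1193 bp away. With members under 50% unique sequence left out, an alternative added after seeing the data, H3 (10 of 10) and H4 (11 of 11) both came to 100.0%. In the promoter window from 100 bases before to 50 after the start, CCAAT stood in 67.2% of the members (24.8% of all promoters) and TATAAA in 38.8% (6.91%). TATAAA 40 to 20 bases before the start was found in 13 members with RefSeq starts, against 6 with GENCODE starts, an alternative added after seeing the data, as were the family medians with the nearest peak. The share of all members with a peak ranged from 77.6%, where the peak had to cover the start, to 91.2%, with members under 50% unique sequence left out, and the median pileup from 66, with each peak counted once, to 71. Uniqueness was computed in the reference genome, and the number of copies of these genes in NIH-3T3 cells was not measured. No paired analysis was possible because there was 1 library and no result comes from a test.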
